A study of Mus musculus with 2 samples.

Results

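The genes described here are 10 targets and regulators of the integrated stress response that centre on the transcription factor ATF4, namely Atf4, Atf5, Ddit3, Trib3, Asns, Chac1, Sesn2, Ddit4, Ppp1r15a and Atf3. They were chosen by name from general knowledge of the pathway. Earlier results of these data were known at that time, so counts set beside all measured genes are descriptions only. The 10 genes were found on the array through the RefSeq transcripts of their probes. They were covered by 11 of the 27218 probes that could be named, and all 10 were among the 16346 genes measured, of 20652 named genes with a usable spot. The samples were the livers of male mice, and for the study's mice in general the methods give the C57BL/6J strain, or transgenic lines on that background, at about 8 to 12 weeks of age. One group was fasted overnight, for about 14 to 16 h, and the other is labelled both as fed ad libitum and as given food after a fast, so the time since the last meal is not known. Total RNA from 3 mice was pooled within each group and hybridised to 1 single-colour oligonucleotide array per group. The pools, and not single mice, were measured.

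When amino acids run short, when misfolded protein builds up in the endoplasmic reticulum (ER), or when heme is lacking or viral RNA is present, dedicated kinases phosphorylate the translation initiation factor eIF2α. General protein synthesis then slows, while Atf4 mRNA, which carries short upstream reading frames, is translated more. ATF4 protein therefore depends on translation as well as on mRNA, and only mRNA was measured here. With partners of the C/EBP family it binds genes for amino acid supply, redox balance, feedback on eIF2α and cell death. In liver, several of these genes also answer to insulin, glucagon, glucocorticoids and mTORC1.

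A single array per group leaves the difference between feeding and fasting without a replicate check, so nothing was tested and no p-value is given. Differences are given as log2 values, feeding minus fasting, after quantile normalization of the processed signal. The error printed beside a difference is an SD, calculated from probes that were spotted 10 times on each array. It was 0.10 for the brightest of 3 equal ranges of signal (121 probes), 0.14 for the middle range (111 probes) and 0.44 for the dimmest (91 probes), and variation between mice is not part of it. No member fell in the dimmest range. The scanner software gives a wider error of its own, about 10% of the signal for every member, which makes 0.20 to 0.21 for a difference. Probes differ in how strongly they bind, so signals are compared between the arrays and not between genes.

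Of the 10 genes, 4 differed at least 2-fold between the pools. Ddit3 was higher upon feeding, and Ddit4, Chac1 and Trib3 were lower. The same threshold was passed by 7.91% of all measured genes, made up of 3.29% higher upon feeding and 4.62% lower (537 and 756 genes, or 717 and 649 with each array scaled by its median). Of the members, 5 lay above 0 and 5 below, beside 7802 and 7383 of the 16346 measured genes. The median difference of the members was -0.10, and that of all measured genes was 0.00. The list therefore did not move as 1 block, and its median hides differences of opposite direction that ranged from -3.73 to 2.24. All 11 probes were well above background on both arrays, and no spot of either array was saturated or, for these probes, marked as an outlier.

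**Figure D1:**
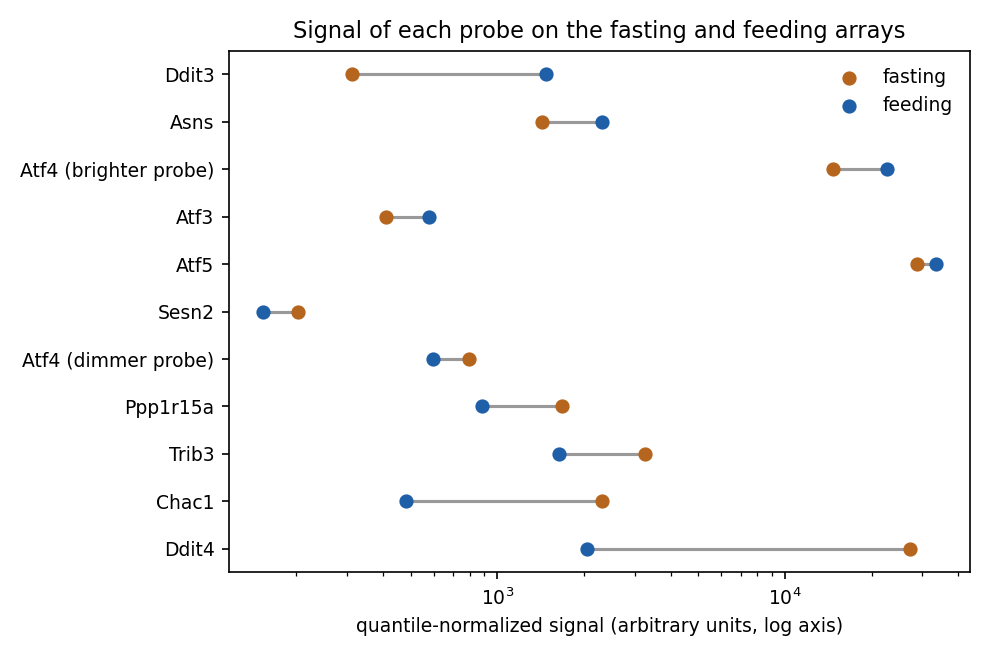
Quantile-normalized signal (arbitrary units, log axis) of each of the 11 probes on the fasting array (brown) and the feeding array (blue), 1 pool of 3 mice each, with a grey line joining the 2 values of a probe. Ddit4 went from 27113 upon fasting to 2046 upon feeding and Ddit3 from 312.2 to 1475, while Atf5 stayed within 28858 and 33493.

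The promoters of the members were searched for the C/EBP-ATF response element, the composite site that ATF4 binds with a C/EBP partner, to show which of them carry its letters near the start of the gene. The motif was TGATGNAA on either strand, in RefSeq windows (GRCm38.p6) from 250 bases before to 50 bases after the start. It was present in 4 of the 10 members and in 4.51% of the 27025 genes with such a window. The members were picked as targets and regulators around ATF4, so this contrast is a description and tests nothing. The matches lay at positions -193 in Chac1, -110 in Atf3, -23 in Asns and 14 in Trib3, counted from the first base of the gene as 0. That of Trib3 read TTACATCA, on the opposite strand. The other 3 are shown 5′ to 3′ on the strand of the gene with the motif in capitals, from chr2:119351009-119351096 (+) for Chac1, chr1:191183396-191183483 (-) for Atf3 and chr6:7693210-7693272 (-) for Asns.
Chac1: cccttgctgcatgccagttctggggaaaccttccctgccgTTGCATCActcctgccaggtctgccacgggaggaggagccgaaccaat
Atf3: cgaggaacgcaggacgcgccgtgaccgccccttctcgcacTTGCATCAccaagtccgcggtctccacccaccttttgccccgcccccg
Asns: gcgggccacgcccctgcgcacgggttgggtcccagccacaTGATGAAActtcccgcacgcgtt

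Chac1 and Atf3 hold the same 8 letters, TTGCATCA, the reverse complement of TGATGCAA. This stricter form was present in 1.03% of genes with a window and in 2 of the 10 members. The genes with the motif did not share a direction. Chac1 and Trib3 were lower upon feeding and past 2-fold, while Atf3 and Asns were above 0 and within 2-fold. Ddit3 and Ddit4 had no match in their windows, which says nothing about sites elsewhere. A match is a description of the sequence and not evidence of binding in these livers.

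Atf4 encodes the central factor of the pathway, and 2 probes for the same transcript, NM_009716, gave opposite directions. The brighter probe had a processed signal of 14807 upon fasting and 22325 upon feeding. The dimmer probe had 829.3 upon fasting and 568.8 upon feeding. After normalization the difference was 0.62 ± 0.10 for the brighter probe and -0.42 ± 0.14 for the dimmer one, so both exceeded the spread of replicate spots and neither was past 2-fold. The mean of the probes differed by 0.10. The probes lay 1.04 apart. Among the 3468 genes with several probes well above background on both arrays, 29.6% had probes on both sides of 0, the median gap was 0.25, and 7.32% had a gap at least as large as that of Atf4. The direction of Atf4 mRNA is therefore not settled by these arrays. Why the probes differ was not tested.

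Atf5 encodes a close relative of ATF4 whose mRNA is also controlled through upstream reading frames. Its processed signal read 29343 after the fast and 32928 after food. The difference of 0.21 ± 0.10 was about as large as the error given by the scanner software, so the pools were not told apart for this gene. Atf3 encodes a bZIP factor induced by ATF4 and by many other stress signals. Its signal was 435.3 upon fasting and 554.4 upon feeding, a difference of 0.50 ± 0.14, within 2-fold.

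Ddit3 encodes CHOP, a C/EBP-related factor that is induced by ATF4 and by the ATF6 arm of the ER stress response and is known for its part in cell death under lasting stress. The fasting pool gave a processed signal of 330.9 and the feeding pool 1444, so the feeding pool was the higher one by several times the spread of replicate spots. The difference was 2.24 ± 0.14, or 4.72-fold higher upon feeding, and 0.33% of all measured genes had a larger increase. It was the only member past 2-fold in this direction, under each scaling and background correction tried.

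Trib3 encodes a pseudokinase that binds ATF4 and CHOP and dampens the insulin-responsive kinase AKT, and its gene is a target of both factors. The fasting pool gave a processed signal of 3312 and the feeding pool 1606. The difference was -1.00 ± 0.10, right at 2-fold. With scaling by the 75th percentile it was -0.93, with scaling by the median -0.81 and with the normexp background correction -0.87, and it was also short of 2-fold with outlier spots kept, so its place past 2-fold rests on the exact processing. Ppp1r15a encodes GADD34, the stress-induced subunit that directs protein phosphatase 1 to eIF2α and restores translation. Its signal was 1706 upon fasting and 859.3 upon feeding, a difference of -0.92 ± 0.14 that stayed within 2-fold.

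Asns encodes asparagine synthetase, a well-studied ATF4 target that answers to amino acid shortage. The fasting pool gave a processed signal of 1463 and the feeding pool 2268, a difference of 0.69 ± 0.10. Chac1 encodes an enzyme that degrades glutathione and lies downstream of ATF4. Its signal was 2350 upon fasting and 457.0 upon feeding, a difference of -2.26 ± 0.14, or 4.79-fold lower. These differences, on either side of 0, both exceeded the spread of replicate spots, and 0.642% of measured genes decreased more than Chac1.

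Ddit4 and Sesn2 encode inhibitors of mTORC1, the kinase complex that promotes growth when nutrients and insulin are plentiful. Ddit4, which encodes REDD1 and is also a glucocorticoid target, had a processed signal of 27529 upon fasting and 2019 upon feeding. The difference was -3.73 ± 0.10, or 13.3-fold lower, and 0.116% of all measured genes decreased more. Sesn2, which encodes a sestrin that senses leucine, had a signal of 218.3 upon fasting and 141.4 upon feeding. Its difference of -0.41 ± 0.14 was in the same direction but within 2-fold.

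**Figure D2:**
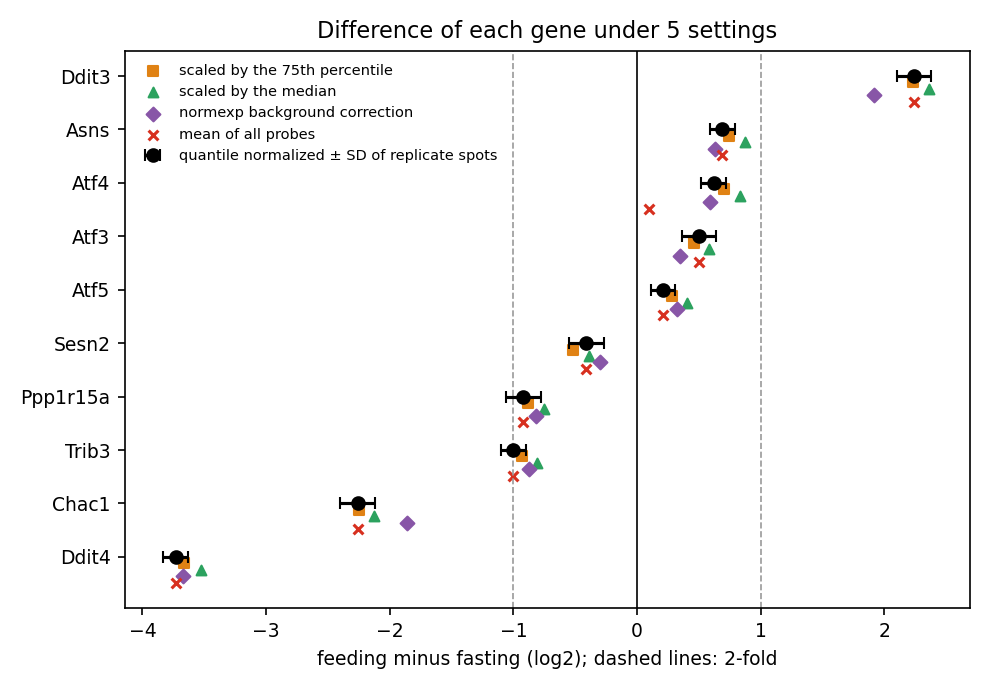
Feeding minus fasting (log2) for each of the 10 genes by its brighter probe, with quantile normalization (black, bars are the SD of a difference between replicate spots) and under 4 other settings (coloured symbols). Each gene kept its side of 0, with Ddit3 between 1.92 and 2.36 and Ddit4 between -3.73 and -3.53, while the mean of both probes brought Atf4 to 0.10.

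**Figure D3:**
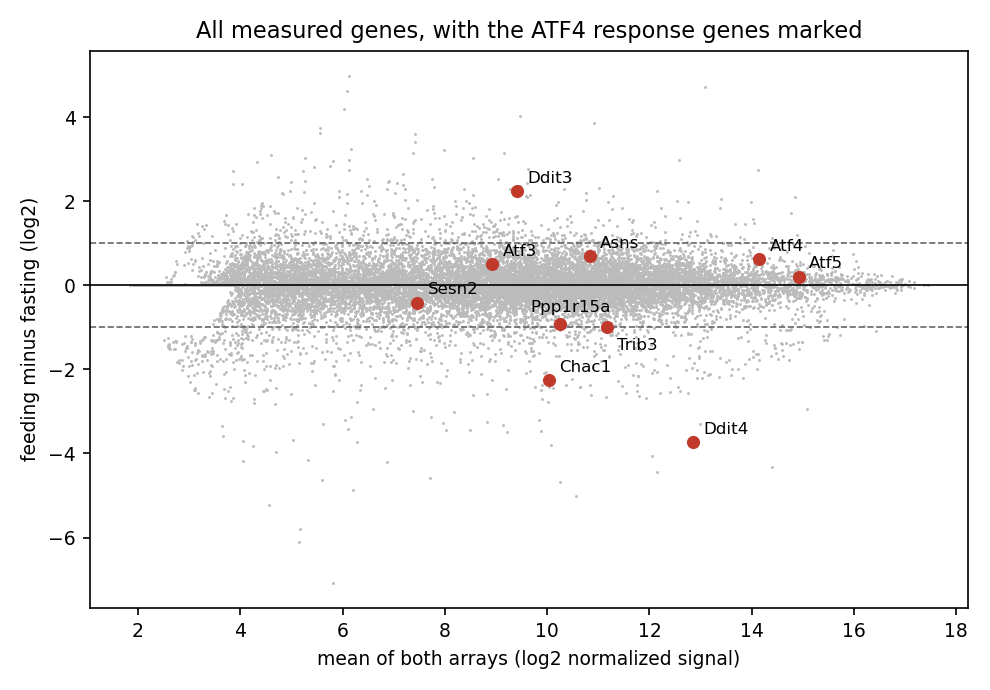
Feeding minus fasting (log2) against the mean log2 normalized signal of both arrays for the 16346 measured genes (grey), with the 10 ATF4 response genes in red and dashed lines at 2-fold. Ddit3 (2.24), Chac1 (-2.26) and Ddit4 (-3.73) lie outside most genes of similar signal, Trib3 (-1.00) lies on the line, and the other 6 lie inside it.

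The kinases that phosphorylate eIF2α were all measured and all within 2-fold. Eif2ak1, which encodes the heme-sensing kinase HRI, differed by -0.39, and Eif2ak2, which encodes PKR, the sensor of double-stranded RNA, by 0.61. Eif2ak3, which encodes the ER stress kinase PERK, differed by 0.02, and Eif2ak4, which encodes the amino acid sensor GCN2, by -0.15. A list of 19 genes held these kinases, eIF2, its exchange factor eIF2B, its phosphatases and the kinase regulators Dnajc3, Impact and Gcn1, and 1 of them was past 2-fold. This was Eif2b3, a subunit of eIF2B, at 1.12, and it was not past 2-fold with the normexp correction (0.85). Eif2b3 has 2 probes, and only the brighter one is given. Kinase activity and eIF2α phosphorylation were not measured.

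The other genes of the pathway were likewise divided. Of 9 measured genes for amino acid transporters, 3 were past 2-fold lower upon feeding and 1 higher. Slc1a4, a carrier of small neutral amino acids, differed by -2.38 and Slc38a2, the glutamine and alanine carrier SNAT2, by -1.90. Slc1a5, a glutamine carrier, differed instead by 1.16 (0.96 with the normexp correction). Slc1a5 has 2 probes, and only the brighter one is given. Slc7a11, the cystine carrier, was dim, with normalized signals of 25.8 and 11.8, and its difference of -1.13 became -0.07 with the normexp correction. None of 13 measured genes for amino acid and one-carbon synthesis was past 2-fold. All 13 genes of the list of tRNA synthetases and the tRNA exporter Xpot lay above 0, with a median of 0.40. They did so under each scaling and background correction tried. With scaling by the median, the median was 0.57 for these genes and 0.09 for all measured genes. With quantile normalization only Yars was past 2-fold, at 1.13, on a dim probe that differed by 0.36 with the normexp correction. The brighter Wars (0.91), Iars (0.88) and Aars (0.82) came close.

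Among 15 other known ATF4 targets, 4 were at least 2-fold lower and 1 higher. Ndrg1 differed by -1.61 and the splice-regulated ER stress factor Xbp1 by 1.19. Map1lc3b, which encodes the autophagosome protein LC3B, differed by -1.03, which became -0.93 with scaling by the 75th percentile and -0.80 with scaling by the median. The hormone gene Fgf21, with normalized signals of 175.0 and 87.3, differed by -1.00 (-0.43 with the normexp correction). Stc2, at -1.31, had signals of 20.3 and 8.16 and differed by -0.09 with that correction. Gdf15, a secreted stress signal that ATF4 and CHOP induce, differed by -0.02.

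Of 23 measured bZIP factors, a class that includes the partners of ATF4 and CHOP, 6 passed 2-fold, each of them lower upon feeding. Jdp2 differed by -2.32, Cebpd by -2.14 and Fos by -2.05, and Cebpb, a common partner of ATF4, differed by -1.37 from a normalized signal of 39404 to one of 15271. Paralogs of the members did not follow them closely. The sestrin gene Sesn1 differed by -1.07, with -0.41 for Sesn2, and was short of 2-fold with scaling by the median (-0.92) and with the normexp correction (-0.93). Ddit4l, Trib1 and Chac2 lay within 2-fold, at -0.23, -0.11 and 0.18, beside the larger differences of Ddit4, Trib3 and Chac1. In the growth arrest and DNA damage family Gadd45, Gadd45a differed by 2.77 and Gadd45g by -2.01, and Gadd45b by -1.06, which was likewise short of 2-fold in these settings (-0.95 and -0.82). The p53 target Bbc3 differed by -1.24.

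**Figure D4:**
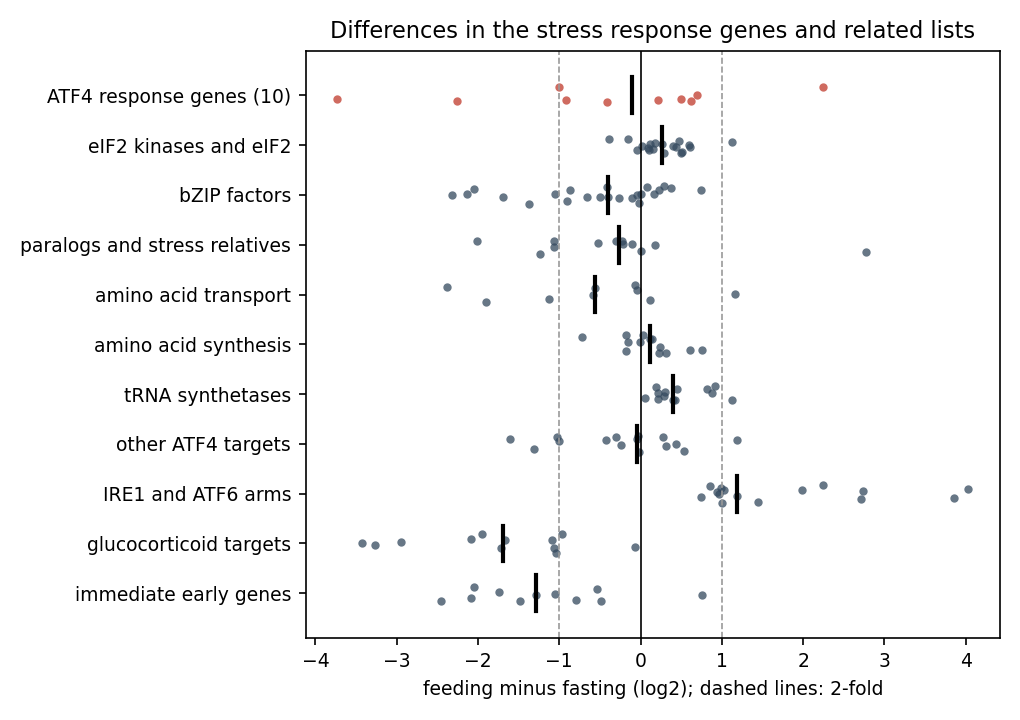
Feeding minus fasting (log2) for each measured gene of 11 lists. Each list that holds a gene shows it as 1 point, so Fos, Jun and Dusp1 appear more than once. Small vertical shifts are for legibility. The 10 ATF4 response genes are in red, with black bars at each list's median and dashed lines at 2-fold. The IRE1 and ATF6 list lies above 0 throughout (median 1.19) and the glucocorticoid targets below it (median -1.69), while the ATF4 response genes lie on both sides (median -0.10).

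Larger and more uniform differences were seen in lists of neighbouring pathways that share single members. The IRE1 and ATF6 arms of the ER stress response raise chaperones and degradation of misfolded protein. All 15 genes of their list lay above 0 and 10 were at least 2-fold higher upon feeding, with Derl3 at 4.03, Sdf2l1 at 3.86 and Creld2 at 2.74. Hyou1, counted among these 10, was at a bound of 2.71 and at 0.55 with the normexp correction. Of the members, Ddit3 is the one also assigned to the ATF6 arm. For glucocorticoid targets, 10 of 12 genes passed 2-fold, all of them lower upon feeding, with Zbtb16 at -3.43, Klf9 at -3.27 and Pck1 at -2.95, and Ddit4 is such a target as well. With scaling by the median, 7 of these 12 genes passed 2-fold and 1 lay above 0. Of 11 measured immediate early genes, 7 passed 2-fold, again all lower, with Nr4a1 at -2.46 and Dusp1 at -2.09. With the normexp correction 5 did so. Dusp1 is also in the glucocorticoid list, and Fos and Jun are also among the bZIP factors above, so these counts overlap. Egr1, of the immediate early list, was above 0 at 0.75 and within 2-fold, as was Atf3, itself often counted among immediate early genes. These counts stand beside backgrounds of 3.29% higher and 4.62% lower. The lists were chosen with earlier results of these data known, so the contrast with these backgrounds is only a description. Which signal accounts for any member was not tested. The ER stress element, CCAAT and CCACG with 9 bases between them, was searched after these values were seen. It was present on either strand in 7 of the 13 genes of the IRE1 and ATF6 list that have a window. The share over all genes with a window was 0.137%, and none of the 10 members, Ddit3 included, held it. The IRE1 and ATF6 list was picked from known genes of these arms, so its share is a description and tests nothing. The absence from the members says nothing about inexact matches or sites elsewhere.

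The cell makeup of the pools was described by 8 lists of markers. The 6 hepatocyte markers differed by -0.07 to 0.07, with summed normalized signals of 549468 upon fasting and 544851 upon feeding. Of 37 measured markers in all, 3 were at least 2-fold higher upon feeding (Sox9 at 2.11, Ms4a1 at 1.21 and Prss2 at a bound of 1.37) and 1 lower (Pecam1 at -1.04). The 5 measured Kupffer cell markers had summed signals of 30159 and 21796, the 5 of endothelium 35391 and 27189, and the 5 of stellate cells and fibroblasts 39628 and 31161, in the same order. The genes within the Kupffer and stellate lists did not share a direction. Adgre1 (-0.89) and Col1a1 (-0.83) were lower upon feeding, while Marco at 0.20, Lrat at 0.24 and Pdgfrb at 0.17 lay above 0, and all 5 endothelial markers lay below it. The 4 cholangiocyte markers summed to 454 and 1706 through Sox9 alone, since Krt19 differed by -0.31, Epcam by 0.08 and Krt7 by a bound of 0.19. The part of other cell types in the members' differences was not tested. Fewer cells of a type and less RNA per cell cannot be told apart in pooled tissue.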

How the data were processed

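Total RNA from mouse liver, pooled from 3 male mice per group, was labelled with Cy3 and hybridised to a Whole Mouse Genome array by the authors. The deposited values are spot intensities from Agilent Feature Extraction (version 11.0.1.1 per the file headers), namely the processed signal (background subtracted, not normalized between arrays), its error and the raw median signals. The authors' quantile normalization and 2-fold filter came after this stage. The value table of the series holds the mean local background and was not used.

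Here, control and outlier spots were left out, spots of the same probe were averaged as log2 processed signals, and 39402 probes were quantile normalized. Of these, 27218 (69.1%) matched a RefSeq transcript of GRCm38.p6. The brightest probe on average stood for its gene, and the gene counted as measured if the scanner software marked this probe as well above background on either array. If it was marked on 1 array only, the difference is a lower bound against the lowest signal well above background. With 1 array per group no test was possible, and the number of arrays limits the precision. Both arrays were read in 1 scan.

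Other settings tried were scaling to each array's 75th percentile or median, normexp with an offset of 50 on the median signals (limma 3.58.1, R 4.3.3), no bound, other filters on dim probes, the mean of probes, outlier spots kept, and thresholds of 1.5-fold and 3-fold. The steps were tested on simulated data. The members and lists were chosen with earlier results of these data known. Named were all members, the eIF2α kinases and, per list, at most 3 genes with the largest difference past 2-fold and well above background on both arrays. Other genes, markers included, were named after their values were seen. The motif search was run with Python 3.11.15.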

Additional observations from a re-analysis of the deposited data

How the results depend on the processing

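Each of the 10 genes kept its side of 0 under the other scalings, the normexp background correction, no lower bound and the mean of its probes, while the dimmer probe of Atf4, taken alone after the data were seen, was on the other side (-0.42). The count of members past 2-fold was 4, beside 7.91% of all genes. It was 3 with scaling by the 75th percentile (8.03% of all genes) or the median (8.36%) and with outlier spots kept (7.97%). The count was also 3 with the normexp correction (3.23%) and at 3-fold (2.87%). At 1.5-fold it was 7, with 3 of them higher upon feeding, where 21.1% of all genes were past the threshold. Under the normexp correction 527 genes in place of 1293 were past 2-fold. Under it, the counts of genes at least 2-fold higher became 0 for eIF2 and its kinases, 0 for amino acid transport and 0 for tRNA synthetases, each from 1. The counts of genes at least 2-fold lower became 2 for the paralogs and stress relatives and 2 for the other ATF4 targets, each from 4. With scaling by the median these last counts were also 2 and 2, and 4 tRNA synthetases were at least 2-fold higher. With its variable base fixed, the promoter motif was found in 2 members in place of 4. Naming probes by a gene name column was planned and not run, since the scanner files used here hold no such column. No paired analysis was possible because each group is 1 array. Leaving out a replicate was not possible for the same reason. The lists were recounted only with quantile normalization, with either other scaling and with the normexp correction. For the IRE1 and ATF6 list the count of genes at least 2-fold higher was 10 to 14 over these. The counts at least 2-fold lower were 7 to 10 for glucocorticoid targets and 5 to 7 for immediate early genes. All members were well above background on both arrays. The normexp setting adds its offset of 50 to every signal. By itself this brings the differences of dim genes, such as Slc7a11 and Stc2, towards 0. What part of their change came from the offset was not tested.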
